A study of Mus musculus with 29 samples.

Results

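The methylome of a differentiated epithelium was set against that of pluripotent cells by comparing 3 keratinocyte libraries with 3 libraries of mouse embryonic stem cells (ESCs), 6 of the 29 libraries of the series. All libraries labelled as keratinocytes were taken, together with all libraries of ESCs collected at passage 10 from serum with LIF (S/L p10). Keratinocytes are the epithelial cells of the epidermis, and these were taken from newborn mice and kept in a proliferative culture. Of these, 2 libraries are labelled 2i/L keratinocytes and male, and 1 is labelled Wild-type keratinocytes and female. The labels tie the first 2 to 2i/L, an ESC medium with inhibitors and LIF, but do not say by what route the cells came from it. The ESCs are of 3 lines called J-34, J-35, and J-37, each given as male, which entered S/L at passage 4 and spent 6 passages in it. The labels give no strain, no transgene and no number of animals, and nothing states that libraries of one class came from separate animals. The p-values below therefore measure the spread between these libraries, which may in part be technical.

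In mammals DNA methylation sits almost wholly on cytosines followed by guanine (CpG). It is laid down by Dnmt3a and Dnmt3b and copied at cell division by Dnmt1 with Uhrf1, and Tet enzymes oxidise it. Dense clusters of CpGs at gene starts are mostly free of methylation in every tissue, while sparse CpGs are mostly methylated, and promoters of germ cell genes are well known for being methylated in somatic cells. Methylation was read by reduced representation bisulfite sequencing, which samples the CpG-rich part of the genome. Over the 398041 autosomal CpGs with 5 or more reads in all 6 libraries, 37031 bins of 1 kb held 3 or more CpGs, with a median of 5 CpGs. The libraries held between 8359802 reads over CpGs, in the wild-type keratinocytes, and 13224372, in 2i/L keratinocytes 1, and the median bin carried 44 to 77 reads per library.

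Averaged over these shared CpGs, which are not the whole genome, the classes lay close together. The mean CpG level was 26.8%, 26.7% and 27.0% in the keratinocyte libraries and 25.1%, 25.2% and 24.9% in the S/L p10 libraries. Every keratinocyte library lay above every ESC library, by 1.77 points on average (26.9% ± 0.131 against 25.1% ± 0.157, SD, n = 3 each, exact permutation p = 0.1, 0.113 when adjusted over 9 measures of level). With 3 libraries against 3, 0.1 is the smallest p that this two-sided test can give. Weighted by reads, the methylated share overlapped between the classes, at 26.5% ± 1.18 and 25.6% ± 0.618 (SD, n = 3 each, exact permutation p = 0.3).

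The shape of the methylome differed more than its mean. Bins above 90% methylation made up 16.1% ± 0.0883 of all bins in keratinocytes and 8.94% ± 0.380 in S/L p10 (SD, n = 3 each). Bins between 10% and 90% made up 31.4% ± 0.294 and 37.9% ± 0.514. The share of bins below 10% was 52.5% ± 0.353 and 53.2% ± 0.193. Keratinocytes thus had more bins above 90%, fewer between 10% and 90% and slightly fewer below 10%. The libraries did not overlap in any of these 3 shares, and each had an exact permutation p of 0.1. Single CpGs, cut at 20% and 80%, gave narrower gaps at the top and in the middle. Above 80% lay 19.7% of CpGs in keratinocytes and 16.7% in S/L p10, between the cuts 13.6% and 15.7%, and below 20% 66.7% and 67.6%. Of the bins between 10% and 90% in S/L p10, 28.6% (4139 bins) lay above 90% in keratinocytes and 8.60% (1246 bins) lay below 10%. Of the bins below 10% in S/L p10, 92.1% (18142 bins) were also below 10% in keratinocytes and 91 bins lay above 90%.

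**Figure D1:**
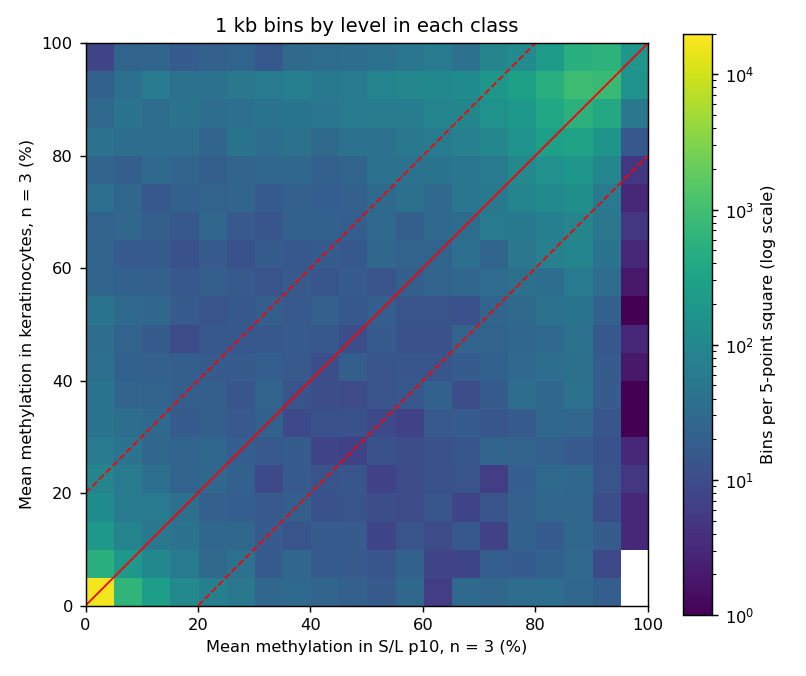
Number of 1 kb bins (colour, log scale) by their mean methylation in the 3 S/L p10 libraries (horizontal axis, %) and in the 3 keratinocyte libraries (vertical axis, %), in squares of 5 points. The solid line marks equal levels and the broken lines a difference of 20 points; 16744 bins lie in the corner below 5% in both classes, and bins leave the diagonal on both sides.

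Libraries of one class were close to one another. Bin levels differed by more than 20 points between 2 keratinocyte libraries in 2.17% to 4.17% of bins, and between 2 ESC lines in 1.65% to 1.88%. Between a keratinocyte and an ESC library the share was 19.5% to 20.4% in all 9 pairs. Pearson's r over bins was 0.979 to 0.986 among keratinocytes, 0.985 to 0.986 among ESC lines and 0.837 to 0.844 between the classes, given as a description because bins of a library share its depth and its base composition.

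Bin by bin, 6822 of 37031 bins (18.4%) differed by at least 20 points at an adjusted p under 0.05 in limma, a linear model with a shared estimate of the spread, fitted to the log2 ratio of methylated to unmethylated reads. Of these, 4332 were higher in keratinocytes (11.7% of all bins tested) and 2490 lower (6.72%). The bins called higher averaged 78.0% in keratinocytes and 32.7% in S/L p10, with a median difference of 41.8 points. The bins called lower averaged 29.3% and 73.3%, with a median difference of -39.6 points. The libraries of the classes did not overlap in 4313 of the higher and 2456 of the lower bins, and over all bins they did not overlap in 37%. A change from one end of the scale to the other was rare: 354 bins were below 10% in S/L p10 and above 70% in keratinocytes, and 240 the reverse. Gains were 63.5% of the calls.

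Both gains and losses lay mostly in sparse bins. Sparse bins with 3 to 9 CpGs averaged 47.5% ± 0.239 in keratinocytes and 43.9% ± 0.297 in S/L p10 (SD, n = 3 each). Bins with 10 to 29 CpGs averaged 3.92% ± 0.142 and 2.35% ± 0.0547, and bins with 30 or more CpGs 0.991% ± 0.00897 and 0.660% ± 0.0176. The keratinocyte libraries lay above all ESC libraries in each class, and each class had an exact permutation p of 0.1 (0.1 adjusted over 3 classes). The sparse class held 2459 of the losses (9.20% of its 26720 bins) and 4062 of the gains (15.2%). Among the 8832 bins with 10 to 29 CpGs, 266 were higher (3.01%) and 31 lower (0.351%), and among the 1479 bins with 30 or more CpGs 4 were higher and 0 lower. At high density both classes stayed near 0 on average, so that most dense bins could gain 20 points but could not lose them, and the split of their calls follows in part from that limit. A bin with more CpGs also holds more reads, and the part of depth in these shares was not tested.

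Bins were also sorted by their mean level in S/L p20, the same 3 lines after 16 passages in S/L, whose libraries took no part in the difference. Bins below 10% there (20551 bins) averaged 5.63% ± 0.173 in keratinocytes and 1.88% ± 0.0645 in S/L p10 (SD, n = 3 each), and 1329 were called higher and 6 lower. Bins at 10% to 30% (2845 bins) averaged 50.5% ± 0.650 and 28.1% ± 0.640, the widest gap of the 5 classes, at 22.4 points. In that class 50.2% of bins were called higher and 9.67% lower. Bins at 30% to 70% (5050 bins) averaged 69.2% ± 0.241 and 64.8% ± 0.700, with 1522 called higher and 894 lower. The means lay the other way round in the 2 upper classes, where the median difference stayed slightly positive, at 0.66 and 0.33 points, and a minority of bins with wide losses lowered the mean. Bins at 70% to 90% (7359 bins) averaged 80.03% ± 0.163 in keratinocytes and 86.4% ± 0.400 in S/L p10, with 48 called higher and 1220 lower. Bins at 90% or more (1198 bins) averaged 88.6% ± 0.0335 and 92.2% ± 0.237, with 0 called higher and 93 lower. The direction of calls at both ends follows from the sorting, since a bin near 0 cannot fall by 20 points and a bin near 100% cannot rise by as much. The keratinocyte and ESC libraries did not overlap in any of the 5 classes. Each had an exact permutation p of 0.1 (0.1 adjusted over 5 classes). S/L p20 is of the same 3 lines as S/L p10. Sorting on it can by itself set keratinocyte means above ESC means in low classes and below them in high ones. The part of the sorting in these means was not tested, and the p-values do not separate it. The S/L p20 libraries themselves averaged less than S/L p10 in the middle classes, at 18.9% against 28.1% in the class of 10% to 30% and at 52.2% against 64.8% in the class of 30% to 70%.

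Density and level were then crossed, with the same limit from the sorting. Of the bins below 10% in S/L p20, those with 3 to 9 CpGs averaged 9.01% ± 0.258 in keratinocytes and 2.73% ± 0.0994 in S/L p10 (SD, n = 3 each), and 11% of these 10551 bins were called higher. With 10 to 29 CpGs the averages were 2.28% ± 0.0951 and 1.06% ± 0.0356, and 1.92% of 8526 bins were called higher. With 30 or more CpGs they were 0.920% and 0.568%, and 0.271% of 1474 bins were called higher. At 10% to 30% in S/L p20, the 194 bins with 10 to 29 CpGs averaged 35.6% ± 1.06 and 21.7% ± 0.863. These rarer dense bins of low to middle level gained in the same direction as the 2647 sparse bins of that level, which averaged 51.6% ± 0.626 and 28.6% ± 0.632.

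**Figure D2:**
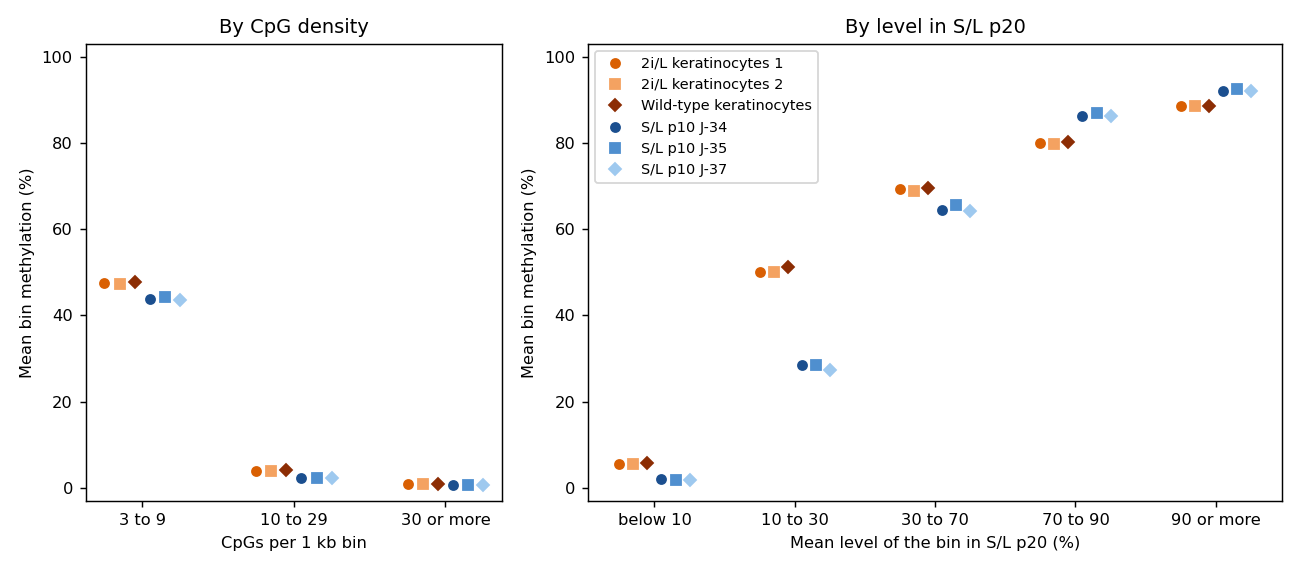
Mean bin methylation (%) of each of the 6 libraries, by the number of CpGs in the bin (left) and by the mean level of the bin in the 3 S/L p20 libraries (right); each point is 1 library. The keratinocyte points lie above the ESC points in every density class and in the 3 lower level classes, by 22.4 points in the class of 10% to 30%, and below them in the 2 upper level classes.

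Around unmethylated CpG clusters the gap between the classes was wider a few kb away than beside them, where levels lay near the floor. Level was not held fixed across distances. Dense unmethylated bins were taken as those with 10 or more CpGs and under 10% in S/L p20, which gave 10000 bins. Of these, 168 (1.68%) were called higher in keratinocytes and 1 lower, beside 11.7% of all bins called higher. A loss of 20 points was hardly possible in bins chosen for a low level, so the split follows in part from that choice. In the neighbouring bins at 1 kb the mean level was 7.55% ± 0.222 in keratinocytes and 5.60% ± 0.0929 in S/L p10 (SD, n = 3 each). At 2 to 3 kb it was 40.7% ± 0.472 and 33.3% ± 0.561. At 4 to 10 kb it was 51.7% ± 0.165 and 43.0% ± 0.498, the widest gap, at 8.70 points, and beyond 10 kb it was 54.6% ± 0.258 and 51.5% ± 0.306. The libraries of the classes did not overlap at any distance, and each distance had an exact permutation p of 0.1 (0.1 adjusted over 4 distances). Calls of a gain made up 5.46%, 21.6%, 23.7% and 15.6% of the bins in these 4 classes in order of distance, and calls of a loss 2.07%, 8.33%, 8.54% and 10.7%.

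**Figure D3:**
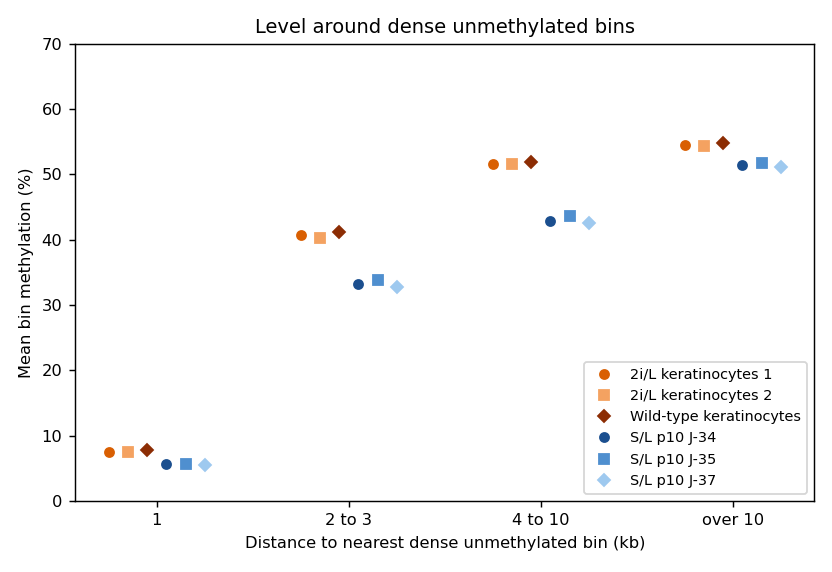
Mean bin methylation (%) of each of the 6 libraries by distance (kb) from the nearest of 10000 dense unmethylated bins; each point is 1 library. The keratinocyte points lie above the ESC points in all 4 distance classes, most widely at 4 to 10 kb.

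Gains and losses were spread over all autosomes. The share of bins called higher ran from 8.88% on chromosome 1 to 14.4% on chromosome 10, and the share called lower from 4.66% on chromosome 19 to 7.77% on chromosome 4. Of the bins called higher whose next bin was also measured, 49.5% (274 of 554) had a gain there, beside 6.85% of all 7886 measured next bins. For losses the share was 26.4% (47 of 178), beside 2.36%. With gaps of at most 2 kb, 357 runs of gains and 69 runs of losses held 2 or more bins. The longest run of gains, of 7 bins with 37 CpGs, lay at chr4:141029250-141035203 (mm9). Its mean was 92.8%, 95.8% and 93.4% in the keratinocyte libraries and 54.4%, 52.2% and 48.6% in S/L p10. The run of gains at chr8:87225290-87230791, of 5 bins with 51 CpGs, started from a lower level, at 57.6%, 61.9% and 53.0% against 9.54%, 6.50% and 7.87%. Of the losses, a run of 4 bins with 23 CpGs at chr2:28767371-28772374 ended in the promoter of Barhl1, a homeobox gene of the nervous system. Its mean was 6.65%, 7.95% and 8.02% in keratinocytes and 44.3%, 40.8% and 41.3% in S/L p10.

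Single bins went from almost empty to almost full. Among sparse bins the widest gain lay at chr2:6021515-6021612 (5 CpGs), with 93.1%, 97.6% and 97.6% in keratinocytes and 1.14%, 2.33% and 0% in S/L p10 (limma adjusted p = 1.31e-08). The widest loss lay at chr4:124248332-124248353 (3 CpGs), with 0% in all 3 keratinocyte libraries and 93.3%, 92.3% and 97.9% in S/L p10 (limma adjusted p = 1.53e-08). The 5 widest gains of that class were 92.7 to 94.9 points and the 5 widest losses -87.0 to -94.5 points. Among bins with 10 to 29 CpGs the widest gain, at chr7:4982025-4982954 (13 CpGs), stood at 94.4%, 95.4% and 89.9% against 0%, 1.05% and 2.67% (limma adjusted p = 1.53e-08). The next widest gain, on the same chromosome at chr7:4960076-4960676, stood at 93.5%, 96.7% and 96.3% against 5.56%, 4.28% and 13.4%.

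Losses in bins of 10 to 29 CpGs were smaller. At chr5:120246721-120246870 (10 CpGs) the level was 4.35%, 4.48% and 6.14% in keratinocytes and 70.4%, 74.1% and 71.4% in S/L p10 (limma adjusted p = 1.57e-07). A bin at chr7:25919816-25919970 (13 CpGs) stood at 19.7% and 17.2% in the 2i/L keratinocytes, 46.4% in the wild-type keratinocytes and 71.3% to 72.7% in S/L p10. With the wild-type keratinocytes as the single keratinocyte library it no longer passed (limma adjusted p = 0.1). The widest loss of this class did not hold. The bin at chr10:11211857-11211974 averaged 21.4% against 90.4%, but the difference changed sign, to 8.27 points when the 0.1% of CpGs with the highest depth were left out, and to 9.47 points against the passage 30 ESCs described further on.

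Only 4 bins with 30 or more CpGs passed the test, all higher in keratinocytes. The bin at chr7:88020012-88020997 (30 CpGs) stood at 81.2%, 74.3% and 78.5% against 6.18%, 5.81% and 6.09% (limma adjusted p = 8.20e-08). The bin at chr6:52154001-52154888 (34 CpGs), which holds the promoter of the homeobox gene Hoxa5, stood at 49.3%, 54.0% and 43.7% against 1.83%, 2.46% and 2.84%. At chr17:56564735-56564934 (31 CpGs) the mean was 36.2% ± 1.97 against 0.296% ± 0.322, and at chr6:127984482-127984998 (32 CpGs) it was 25.9% ± 1.69 against 0.123% ± 0.214 (SD, n = 3 each). These were partial gains in 3 of the 4 bins, at similar levels in all 3 keratinocyte libraries, on a background of near 0 in every ESC library.

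To see which genes such changes touched, promoter sequences from RefSeq (build GRCm38.p6, 250 bases before to 50 after the gene start) were placed on the measured mm9 CpGs by the spacing of their CpGs. This placed 8467 genes, and 5570 promoter windows had 3 or more CpGs with 5 or more reads in all 6 libraries. Nearly all of these promoters had little methylation in both classes. Of the windows, 95.5% (5318) were below 10% in each of the 6 libraries, and the mean over windows was 1.83% in keratinocytes and 1.46% in S/L p10. Of the tested windows 56 were higher (1.01%) and 21 lower (0.377%), 1.38% in all. Beside this stand 18.4% of all bins, 3.36% of bins with 10 to 29 CpGs and 0.270% of bins with 30 or more. Placement needed an unbroken run of 6 CpGs, so promoters poor in CpGs were left out. The part of this selection in the low levels and few calls was not tested. The groups did not overlap in any of the 77. Over all 5570 windows the libraries did not overlap in 8.83%. Windows of neighbouring genes can share CpGs, so the calls stand for 54 separate stretches with a gain and 20 with a loss, and 22 of the gains and 9 of the losses belong to predicted gene models.

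Each tested promoter of the germline list was higher in keratinocytes. The list held 14 genes, of which 8 could be placed and 3 were tested, and 3 of 3 were called higher. It was chosen with earlier results of these data known, so its counts are descriptions and not a test of the list. Their median difference was 72.9 points, beside 0 over all 5570 windows. Mael is a factor of the piRNA pathway that silences transposons in germ cells. It stood at 91.9%, 88.0% and 93.8% in the keratinocyte libraries and at 10.9%, 23.1% and 15.5% in S/L p10. Its window held 5 CpGs and as few as 25 reads (limma adjusted p = 3.61e-07). Hormad1, a protein of the meiotic chromosome axis, stood at 83.7%, 88.9% and 85.9% against 13.8%, 10.98% and 15.1% (9 CpGs, limma adjusted p = 2.30e-07). Ddx4, the germ cell RNA helicase also known as Vasa, stood at 53.9%, 68.9% and 77.4% against 9.49%, 3.64% and 8.33% (13 CpGs, limma adjusted p = 4.01e-06). All keratinocyte libraries lay far above all ESC libraries, and the ESC lines themselves were not at 0 at these promoters. With at least 1 read per CpG in place of 5, Dazl and Slc25a31 were added and 5 of 5 tested members were higher. Dazl, a germ cell RNA-binding protein, then averaged 91.7% against 31.4% on as few as 9 reads, and Slc25a31, an ADP/ATP carrier of testis, 79.6% against 26.8%.

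The sequences below show these 3 windows together with Hic1, a gain from near 0, and Ckm, the widest loss, because their measured CpGs carry the promoter results; capitals mark the CG letters measured in all 6 libraries, and each is written 5′ to 3′ on the strand of its gene. The measured CpGs span chr1:168168875-168168905 in Mael (minus strand), chr3:95363424-95363622 in Hormad1 (plus), chr13:113442472-113442612 in Ddx4 (minus), chr11:74981790-74981842 in Hic1 (minus) and chr7:19996205-19996443 in Ckm (plus), all mm9.
Mael: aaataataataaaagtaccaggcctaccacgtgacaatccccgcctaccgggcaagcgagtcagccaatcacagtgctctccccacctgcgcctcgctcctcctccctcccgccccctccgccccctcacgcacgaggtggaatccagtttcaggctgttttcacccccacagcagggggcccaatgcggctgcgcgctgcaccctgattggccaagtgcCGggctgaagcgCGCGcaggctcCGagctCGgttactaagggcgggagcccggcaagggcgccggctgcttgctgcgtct
Hormad1: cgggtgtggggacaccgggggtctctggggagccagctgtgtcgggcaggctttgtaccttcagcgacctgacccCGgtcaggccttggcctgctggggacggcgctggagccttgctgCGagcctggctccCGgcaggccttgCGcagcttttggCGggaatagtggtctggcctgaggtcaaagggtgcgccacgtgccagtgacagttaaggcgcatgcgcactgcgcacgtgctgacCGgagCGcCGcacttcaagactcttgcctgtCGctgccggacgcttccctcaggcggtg
Ddx4: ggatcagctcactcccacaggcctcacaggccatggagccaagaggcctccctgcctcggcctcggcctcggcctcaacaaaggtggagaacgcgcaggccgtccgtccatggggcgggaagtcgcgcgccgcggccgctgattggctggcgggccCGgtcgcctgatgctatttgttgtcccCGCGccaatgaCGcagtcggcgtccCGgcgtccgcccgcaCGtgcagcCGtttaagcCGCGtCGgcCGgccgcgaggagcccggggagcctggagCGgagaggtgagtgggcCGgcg
Hic1: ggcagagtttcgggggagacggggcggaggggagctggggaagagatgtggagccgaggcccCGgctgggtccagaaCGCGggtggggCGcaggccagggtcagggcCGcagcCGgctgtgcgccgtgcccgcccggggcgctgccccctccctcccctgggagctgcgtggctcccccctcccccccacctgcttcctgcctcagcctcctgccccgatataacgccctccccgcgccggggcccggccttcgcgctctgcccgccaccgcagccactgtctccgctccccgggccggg
Ckm: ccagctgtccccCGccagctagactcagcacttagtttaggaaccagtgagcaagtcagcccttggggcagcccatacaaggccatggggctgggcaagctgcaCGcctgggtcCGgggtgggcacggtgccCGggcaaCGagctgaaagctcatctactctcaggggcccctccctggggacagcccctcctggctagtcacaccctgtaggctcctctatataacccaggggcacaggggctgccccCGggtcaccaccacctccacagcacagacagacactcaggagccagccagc

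The 5 windows differ in CpG content. Mael and Hormad1 have 24 CGs each in 300 bases, Ddx4 38 and Hic1 29, while Ckm has 7, of which 6 were measured. The letters CACGTG, which read the same on both strands and are the core of the E-box bound by Myc and Max and by Mitf and Usf family members, occur in all 3 germline windows (2 times in Hormad1) and in neither Hic1 nor Ckm. They occur in 7 of the 56 windows called higher (12.5%), in 0 of the 21 called lower and in 10.8% of all tested windows, so the share among gains is near the background. The letters GCGGGA or, on the other strand, TCCCGC, part of the E2F site, occur in all 3 germline windows and in 33.9% of the gains, 23.8% of the losses and 45.9% of all tested windows. The motifs were searched separately, so that matches may share a base, and a match says only that the letters are present.

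The other widest gains among genes without predicted names are described one by one, since no list holds them. Naa11, a catalytic subunit of an N-terminal acetyltransferase and an autosomal copy of Naa10, had the widest gain of all named promoters, at 93.3%, 93.9% and 100% against 6.78%, 6.72% and 0.962% (8 CpGs, limma adjusted p = 2.82e-08). All 8 CpGs also lie in the window of the transcript 4930467D21Rik, called as well, so these are 1 gain and not 2. Hsf5, a member of the heat shock factor family active in spermatogenesis, stood at 90.2%, 100% and 93.8% against 8.57%, 13.1% and 11%. Dmrtb1, a DM-domain transcription factor of spermatogonia, stood at 90.2%, 85.1% and 97.8% against 24.8%, 15.5% and 12.2%. In each of these the keratinocyte promoter was close to full methylation and the ESC promoter carried a low level. Gpat2, a mitochondrial acyltransferase best known from testis, averaged 83.9% ± 7.63 against 25.8% ± 6.47 (SD, n = 3 each). A window shared by Btbd18, a regulator of piRNA loci, and Ctnnd1, which encodes p120-catenin of adherens junctions, averaged 91.9% ± 5.64 against 36.9% ± 3.45, and the CpGs cannot be assigned to one of the 2 genes. Prr23a2 averaged 66.0% ± 8.76 against 11.8% ± 1.12. Asz1 and Hormad2, germ cell genes named after their values were seen, averaged 92.4% against 57.9% and 49.5% against 10.5%.

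Some gains reached a middle level. Hic1, a transcriptional repressor known as a tumour suppressor, stood at 65.7%, 58.9% and 73.3% in keratinocytes and at 0%, 0% and 1.28% in S/L p10 (6 CpGs, limma adjusted p = 2.82e-08). The next 6 promoters were named after their values were seen, and no list of developmental or imprinted genes was tested. Hoxa5 stood at 51.0%, 53.7% and 25.0% against 1.71%, 4.35% and 3.45%, Tbx1, a T-box factor of pharyngeal development, at 65.1%, 58.3% and 51.0% against 13.7%, 8.75% and 10.4%, and Hoxd12 at 36.0%, 37.7% and 41.3% against 14.8%, 17.7% and 12.9%. Imprinted genes keep methylation on 1 parental allele. Igf2r, Peg12 and Mcts2 are given as examples, since the number of imprinted promoters tested was not counted. Igf2r, a maternally expressed receptor that clears Igf2, stood at 44.9% and 55.1% in the 2i/L keratinocytes, 15.3% in the wild-type keratinocytes and 1.85% to 2.40% in S/L p10. Peg12 stood at 30.9%, 8.11% and 29.2% against 0%, 6.06% and 0%, and Mcts2 at 38.8%, 29.03% and 48.0% against 15.4%, 17.1% and 0%. At the imprinted genes the keratinocyte levels ran from 8.11% to 55.1%, short of full methylation, and at Hoxa5 and Igf2r the wild-type library was the lowest of the 3.

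Of the 21 promoters called lower, 13 averaged below 50% in S/L p10 and 8 above 60%. The 8 were Ckm, Emid1, which fell short of the 30 reads required of a named promoter, and 6 predicted genes. Ckm, the muscle creatine kinase, stood at 4.17%, 8.33% and 15.7% against 72.4%, 77.3% and 80% (6 CpGs, limma adjusted p = 2.03e-06). Il11, which encodes a cytokine of the interleukin-6 family, stood at 1.61%, 6.82% and 0% against 54.2%, 23.9% and 40.5%. Traip, a ubiquitin ligase of the replication stress response, stood at 0% in all 3 keratinocyte libraries against 45.2%, 36.0% and 26.5%. The keratinocyte libraries were near 0 at both, while the ESC lines were spread over a wide range. With limma on percent methylation in place of the log2 ratio, Il11 (adjusted p = 0.237), Traip (0.064), Atf7ip (0.105), Thegl (0.178), Sult2b1 (0.0677) and Vmn2r29 (0.0924) were not called. Barhl1 averaged 6.14% ± 2.70 against 34.4% ± 3.00, Prom2, a prominin of epithelial membrane protrusions, 3.31% ± 2.02 against 29.5% ± 2.68, and Sult2b1, the cholesterol sulfotransferase of epidermis, 0.654% ± 1.13 against 21.0% ± 5.27 (SD, n = 3 each). Atf7ip, a partner of the histone methyltransferase Setdb1, averaged 0.606% ± 1.05 against 31.7% ± 9.44 in a window shared with a predicted gene, and Thegl 0.498% ± 0.862 against 27.2% ± 10.0. H2-Q6, a class Ib histocompatibility gene, averaged 1.96% ± 0.902 against 36.8% ± 5.63, and Vmn2r29, a vomeronasal receptor, 15.8% ± 6.38 against 46.9% ± 6.398; both have near-identical relatives, so their reads may be shared. Vmn2r29 lost its call without either 2i/L keratinocyte library or without line J-37 (limma adjusted p = 0.0509 to 0.077), and Sult2b1 fell under 20 points without J-35 or J-37 (-18 and -19.8 points).

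The promoters of the lineage lists said little about the labels. Of 22 keratinocyte genes only Grhl3 and Dsp were placed and tested, and of 21 pluripotency genes only Tfcp2l1 and Klf4. None was called, and all 4 averaged below 2% in both classes. Grhl3, an epidermal transcription factor, averaged 0.901% in keratinocytes and 0% in S/L p10, and Tfcp2l1, a factor of naive pluripotency, 0% and 1.89%. Dsp, the desmosome protein desmoplakin, and Klf4, a factor of both pluripotency and epidermis, were at 0% in all 6 libraries. Of 11 marker genes for fibroblasts, melanocytes, endothelium and blood in skin only Vim could be placed, and it was too thinly covered for the test. The labelled cell types and the purity of the keratinocyte cultures were therefore not tested by these promoters. All 6 tested genes of the methylation machinery (Dnmt1, Dnmt3a, Dnmt3b, Uhrf1, Tet2 and Tet3) were below 1% on average in both classes, and 0 of 6 were called.

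**Figure D4:**
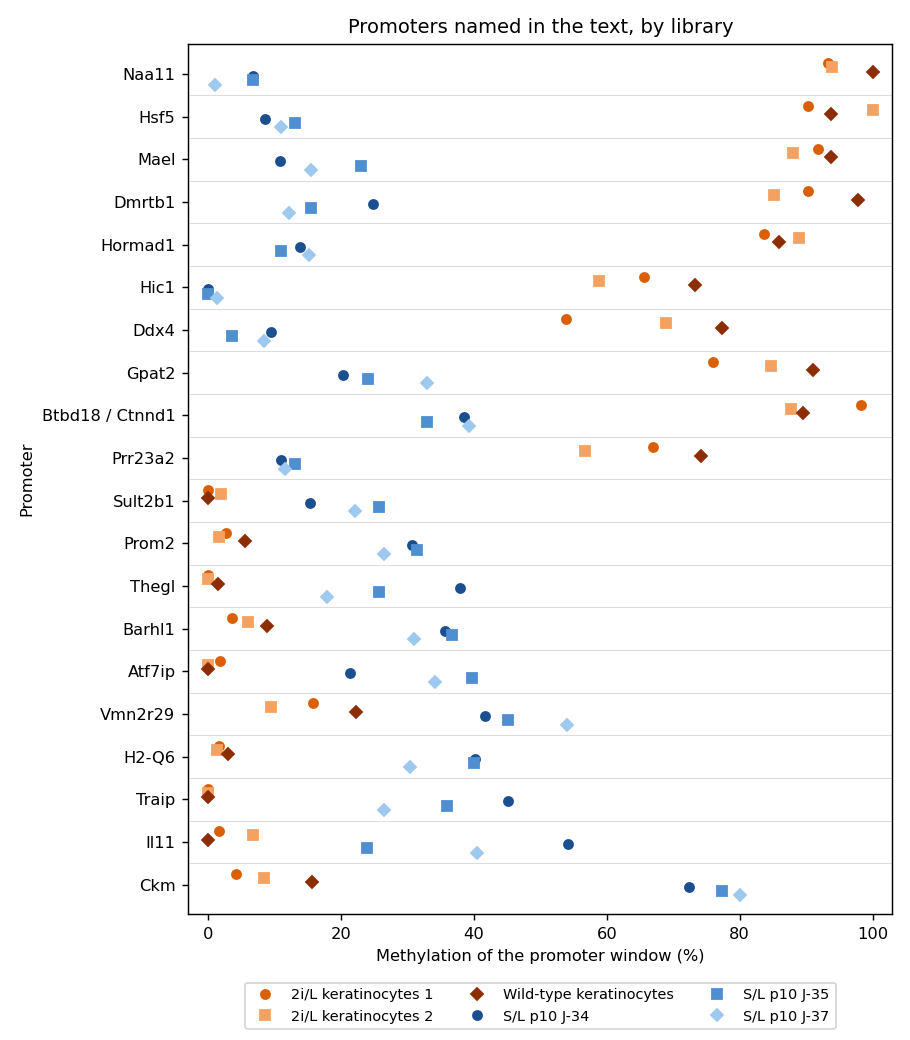
Methylation (%) of the promoter windows of Mael and of the 10 widest gains and 10 widest losses among genes without predicted names. Names with Gm or Rik count as predicted, and some of those left out had wider differences. Windows other than that of Mael had 30 or more reads in each library. Rows are ordered by the difference between the classes. Each point is 1 library, and Btbd18 and Ctnnd1 share a window. Keratinocyte and ESC points do not overlap in any row, and rows other than Mael were chosen among calls without overlap.

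The choice of ESC library mattered for some losses. The keratinocyte libraries shared more covered CpGs with 3 ESC groups (p30, a2i/L p20 and PKCi/L p20) than with S/L p10. Library 2i/L keratinocytes 1 shared 73.3% to 73.6% of covered CpGs with ESCs returned from 2i/L to S/L and collected at passage 30 (p30, 2 libraries, of which the one titled J-35 is called J-34 in its other labels), and 63.0% to 64.8% with S/L p10. The same library shared 66.7% with 2i/L keratinocytes 2 and 62.9% with the wild-type keratinocytes, so the covered set did not follow the class. Because it differed between ESC groups, the comparison was repeated against p30, an alternative chosen after the data were seen. It gave 5055 gains (11.4% of 44344 bins) and 2760 losses (6.22%), 17.6% in all, and levels in every density, level and distance class differed in the same direction as against S/L p10, the class of 10% to 30% by 18.5 points. At promoters it gave 58 gains (0.959% of 6049) and 18 losses (0.298%), 1.26% in all. All 11 genes with a gain shown in the plot of promoters by library passed against p30. Against S/L p10 these gains were 54.1 points or wider, and the losses shown there, other than Ckm, were -20.4 to -36.7 points. Gains and losses were thus not of like size. Among the 10 losses, Ckm (78.8% in p30), H2-Q6, Barhl1, Prom2 and Sult2b1 passed, whereas Il11, Traip, Vmn2r29, Atf7ip and Thegl did not, with p30 means of 21.1%, 6.53%, 17.9%, 15.5% and 6.16%. With S/L p20 as the stem cells, Prom2 (-16.1 points), Sult2b1 (-18.6 points) and Vmn2r29 (-21.4 points, limma adjusted p = 0.0623) were not called. The comparisons share the keratinocyte libraries and are not independent. Cell type, culture medium and any batch of library preparation cannot be told apart in the 6 libraries. With S/L p20 as the stem cells, 7084 bins were higher (17.2% of 41074) and 2156 lower (5.25%), 22.5% in all. With the wild-type keratinocytes as the single keratinocyte library, 3762 bins were higher (10.2%) and 1937 lower (5.23%), 15.4% in all, and 32 promoters were higher and 13 lower. In that fit Barhl1 (limma adjusted p = 0.143), Thegl (0.0676), Prom2 (0.114) and Vmn2r29 (0.265) were not called.

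Levels of the called bins in the other ESC cultures show where the ESC side stands. These bins were chosen on S/L p10, so the values are descriptions. Bins called higher in keratinocytes averaged 24.7% ± 0.240 in S/L p20 (SD, n = 3), 37.8% ± 2.39 in p30 (n = 2) and 10.1% ± 0.211 in 2i/L p10 (n = 3). They averaged 77.7% in the 2i/L keratinocytes and 78.6% in the wild-type keratinocytes, and the highest ESC group, a2i/L p20, averaged 37.8%. Bins called lower averaged 64.4% ± 1.20 in S/L p20, 70.8% ± 0.0321 in p30 and 27.0% ± 0.553 in 2i/L p10, against 28.7% and 30.4% in the 2 keratinocyte groups. In 2i/L p10 the lower bins were thus near the keratinocyte level and the higher bins far below it, while all bins together averaged 13.5% in 2i/L p10 and 35.3% in keratinocytes. At the germline promoters, Ddx4 averaged 2.74% in 2i/L p10 and 5.90% in p30, and Mael 4.30% and 13.8%.

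**Figure D5:**
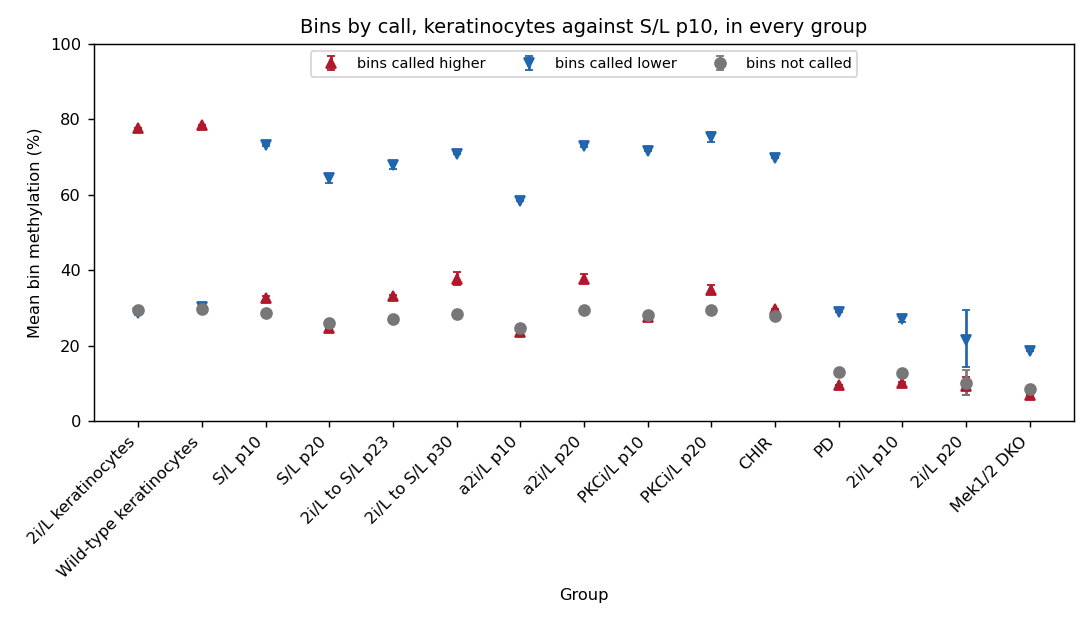
Mean methylation (%) of the bins called higher, called lower and not called in keratinocytes against S/L p10, in every group of the series; points are means over the libraries of a group and bars run from its lowest to its highest library, with no bar for groups of 1 library. The higher bins stand near 78% in both keratinocyte groups and below 40% elsewhere, and the lower bins stand near 30% in keratinocytes, in PD and in 2i/L p10.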

How the data were processed

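Methylation was measured in 29 mouse libraries of 15 groups, of which 6 were compared here. Conversion with bisulfite was done on pools of 12 barcoded reactions, per the labels' protocols; which libraries shared a pool is not given in the sources used here. Per the submitters' processing notes, BSMAP 2.89 and build mm9 were used. The authors deposited 1 list of CpGs per library with methylated over total reads in a text field, and a score, checked here to be the whole part of 1000 times the methylated share in all 29 files. Upstream filters and the bisulfite conversion rate were not given in these sources.

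The members and gene lists were chosen with earlier results of these data known. Reads were summed over CpGs with 5 or more reads in all 6 libraries into 1 kb bins with 3 or more CpGs. The main test was limma 3.58.1 (R 4.3.3) on log2((methylated + 1)/(unmethylated + 1)), two-sided, Benjamini-Hochberg adjusted over autosomal bins. A call needed an adjusted p under 0.05 and 20 points or more. The test was also run on simulated data, whose outcome is not reported here and is not used as support. Levels are means over bins, compared by exact two-sided permutation tests. Coordinates are mm9, from the first to the last CpG, counted from 1.

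Since no mm9 annotation was used, promoters were placed, as a step added after seeing the data, by an unbroken run of 6 CpGs whose spacing matched 1 place in the genome; 9472 of 9552 placed sequences (99.2%) fell on the annotated chromosome and were kept. Named bins are the 5 widest gains and losses per density class, and named promoters the 10 widest of each direction without predicted names, among calls whose classes did not overlap and with 30 or more reads in each library; others are marked in the text. Reads carry no molecular identifiers, so PCR copies count as reads.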

Additional observations from a re-analysis of the deposited data

Results flagged for a closer look

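Chromosome X was left out of the comparison because 1 of the 6 libraries is labelled female. Signal there and on chromosome Y differed between libraries. In the 9 chromosome X bins with 10 or more CpGs their mean level was 31.3%, against 14.8% and 13.7% in the 2i/L keratinocytes and 12.4%, 12.6% and 13.8% in S/L p10. Chromosome X gave 21.2 reads per 1000 autosomal reads in that library and 10.0 to 11.4 in the other 5. Chromosome Y gave 10.9 reads per 1000000 autosomal reads in that library, 21.6 and 23.04 in the 2i/L keratinocytes, which are labelled male, and 69.3 to 75.6 in the male S/L p10 lines.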

How the results depend on the processing

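The 163 levels by class and over all shared CpGs that were recomputed under the alternatives all kept their direction, but not their size. Against S/L p20 the difference over all shared CpGs was 4.42 points and that of bins with 3 to 9 CpGs 9.02. At 1 read per CpG the differences were 1.98 points at 3 to 9 CpGs and 3.93 at 10 to 29. At 10 reads the libraries overlapped in bins of 30 or more CpGs (3.15 points, exact permutation p = 0.8), of 90% or more (-0.611, p = 0.4) and at 2 to 3 kb (0.835, p = 0.3). At that depth the gap at 2 to 3 kb (7 bins) was narrower than the gap at 1 kb (2.85 points, 38 bins). Counts of calls moved with depth and with the number tested. At 10 reads per CpG, 227 bins were higher and 56 lower of 4865 (4.67% and 1.15%), and 1 of 687 promoters was called in each direction. At 1 read, 12215 and 9131 of 95093 bins (12.8% and 9.60%) and 92 and 35 of 7557 promoters were called. Against S/L p20, 7084 bins were higher, and bins of 5 or more CpGs gave 1509 and 484. The wild-type keratinocytes alone gave 32 and 13 promoters, limma on percent 9 lower promoters, and a limit of 10 points 37. The share of gains among called bins was 63.5% in the main comparison, 80.2% at 10 reads, 76.7% against S/L p20 and 75.7% with 5 or more CpGs. For the bin at chr10:11211857-11211974, leaving out the deepest CpGs gave 8.27 and p30 gave 9.47 points; the cause was not tested. Over all alternatives, 404 of 407 values for named bins and 292 of 317 for named promoters kept their call and direction. The 25 promoter calls lost were all losses of methylation. The named gains were 54.1 to 90.9 points wide. The named losses other than Ckm were -20.4 to -36.7 points, nearer the limit of 20 points, so the 2 directions were not compared at like size. Leaving out 1 library gave 4111 to 4223 higher and 2281 to 2437 lower bins, and 46 to 52 higher and 18 to 23 lower promoters. No paired analysis was possible because keratinocyte and S/L p10 libraries share no replicate numbers.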
